A study of Homo sapiens with 12 samples.

Results

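LX-2 cells that received siRNA against NAT10 before TGF-β1 (the SiNAT10_TGFB group) were compared with LX-2 cells given TGF-β1 alone (the TGFB group). The libraries were chosen by their labels. They are 6 of the 12 libraries of the series, 3 in each group, and 18560 of the 58735 genes in the files had enough counts over the 12 libraries to be tested. LX-2 is an established human hepatic stellate cell line, and RNA sequencing measured the expression of its genes. Both groups received TGF-β1 at 5 ng/ml for 24 h. In the SiNAT10_TGFB group the siRNA was introduced with Lipofectamine 48 h before TGF-β1. The other 6 libraries are untreated cells (con) and cells given the siRNA without TGF-β1 (SiNAT10). No group with a control siRNA is named in the labels, so the effect of losing NAT10 and that of transfection cannot be told apart in any value given here. The comparison addresses how cells that carry the siRNA differ from other cells in the presence of the cytokine that drives stellate cells towards a fibrotic state.

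NAT10 is a nucleolar enzyme that places acetyl groups on cytidines of 18S rRNA and, with the adaptor protein THUMPD1, of transfer RNAs, and it has been reported to acetylate mRNA. It is also a helicase of the particle in which the small ribosomal subunit is assembled. TGF-β1 binds a pair of receptor kinases that activate SMAD transcription factors, which in stellate cells switch on collagens, other matrix proteins and the contractile proteins of a myofibroblast.

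Total counts ran from 32168520 to 35132582 in the TGFB libraries and from 25877008 to 28311434 in the SiNAT10_TGFB libraries. The 10 most abundant genes took 8.01 to 8.25% of the counts in TGFB and 5.09 to 5.14% in SiNAT10_TGFB. The first principal component of all 12 libraries held 48.1% of the variance. Levels below are CPM (a gene's counts relative to those of its library) after TMM scaling, which corrects for such differences in composition. A log2 fold change is SiNAT10_TGFB minus TGFB with its standard error (SE), and p-values were computed by edgeR's quasi-likelihood method and adjusted after Benjamini and Hochberg across the 18560 genes. Rose and fell are used for an adjusted p under 0.05. Replicates are biological by their labels, which name no separate cultures, and the p-values cover only how far these samples spread.

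The identity of the cells was checked against 20 stellate cell markers. In all 6 libraries 9 of them, among them VIM, THY1, LHX2, NGFR and MCAM, stood at 1 FPKM or more, whereas DES, LRAT, HGF and DCN had at most 3 counts in every library. The summed level of the 20 markers was 1133 to 1192 FPKM in TGFB and 351 to 379 FPKM in SiNAT10_TGFB. Of the 14 markers with enough counts to be tested 8 fell, 1 rose and 5 were not called. COL1A1, a chain of type I collagen, made up most of the sum in TGFB, with 786, 721 and 796 FPKM in TGFB and 158, 134 and 126 FPKM in SiNAT10_TGFB. ACTA2, smooth muscle actin and a marker of activated stellate cells, was low in both groups, with 1.48, 1.43 and 1.33 FPKM in TGFB and 1.45, 1.28 and 1.59 FPKM in SiNAT10_TGFB. In bulk RNA, fewer cells of a type and less RNA per cell cannot be told apart. Of 12 macrophage and leukocyte markers none reached 1 FPKM in all 6 libraries, 3 had enough counts to be tested (2 rose and 1 fell), and the sum of the 12 was 1.84 to 2.44 FPKM in TGFB and 2.9 to 3.33 FPKM in SiNAT10_TGFB. The 10 hepatocyte markers summed to 4.27 to 4.3 and 6.52 to 7.39 FPKM, with APOB, TTR, CYP3A4, CYP2E1 and HNF4A at 3 counts or fewer in every library. The 10 endothelial markers summed to 35.9 to 38.6 and 27 to 30.1 FPKM, and the 8 cholangiocyte markers to 12.2 to 13.4 and 12.5 to 13.5 FPKM.

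In the TGFB libraries NAT10 (ENSG00000135372, chromosome 11 of hg38 from 34105602 to 34147670) had levels of 67.8, 65.6 and 67.5 CPM. With the siRNA they were 19.2, 15.8 and 20.7 CPM. The groups did not overlap, and the siRNA came with a level at 27.7% of that in TGFB, a log2 fold change of −1.85 with an SE of 0.088 and an adjusted p of 3.53e-14. All 6 libraries therefore matched the siRNA part of their labels, and NAT10 does not check the TGF-β1 part, which both groups share. THUMPD1, the partner of NAT10 in acetylating transfer RNAs (ENSG00000066654, chromosome 16 of hg38 from 20702816 to 20742084), went the other way. It stood at 43, 45.1 and 39.9 CPM in TGFB and 92.2, 93.9 and 92.8 CPM in SiNAT10_TGFB, a log2 fold change of 1.12 with an SE of 0.079 and an adjusted p of 3.13e-11.

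Across all genes tested, 4886 (26.3%) were higher and 4971 (26.8%) lower in SiNAT10_TGFB, which is the background over all genes for the counts that follow. A log2 fold change of at least 1 was reached by 1328 genes (7.16%) upwards and 1679 (9.05%) downwards. The median over all genes was 0.01. The libraries of the 2 groups did not overlap in CPM for 60.6% of the genes. Scaling to library size alone raised the median by 0.13 and the higher share of the calls from 49.6 to 61.3%, so directions here are relative to TMM scaling. Of the 13870 protein-coding genes tested, 30.4% were higher and 31.1% lower. Among those with a mean of at least 50 counts, the median fell over 5 equal bins of transcript GC content. It was 0.19 in the lowest bin, with 45.4% higher and 18.2% lower. In the highest bin it was −0.45, with 11.6% higher and 62.1% lower. The background of a list thus depends on GC content, and no list was set against genes of like GC content. Values of named genes with this GC trend removed from each library are therefore given wherever they differ by more than 1.5 times, turn the direction or end a call.

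**Figure D1:**
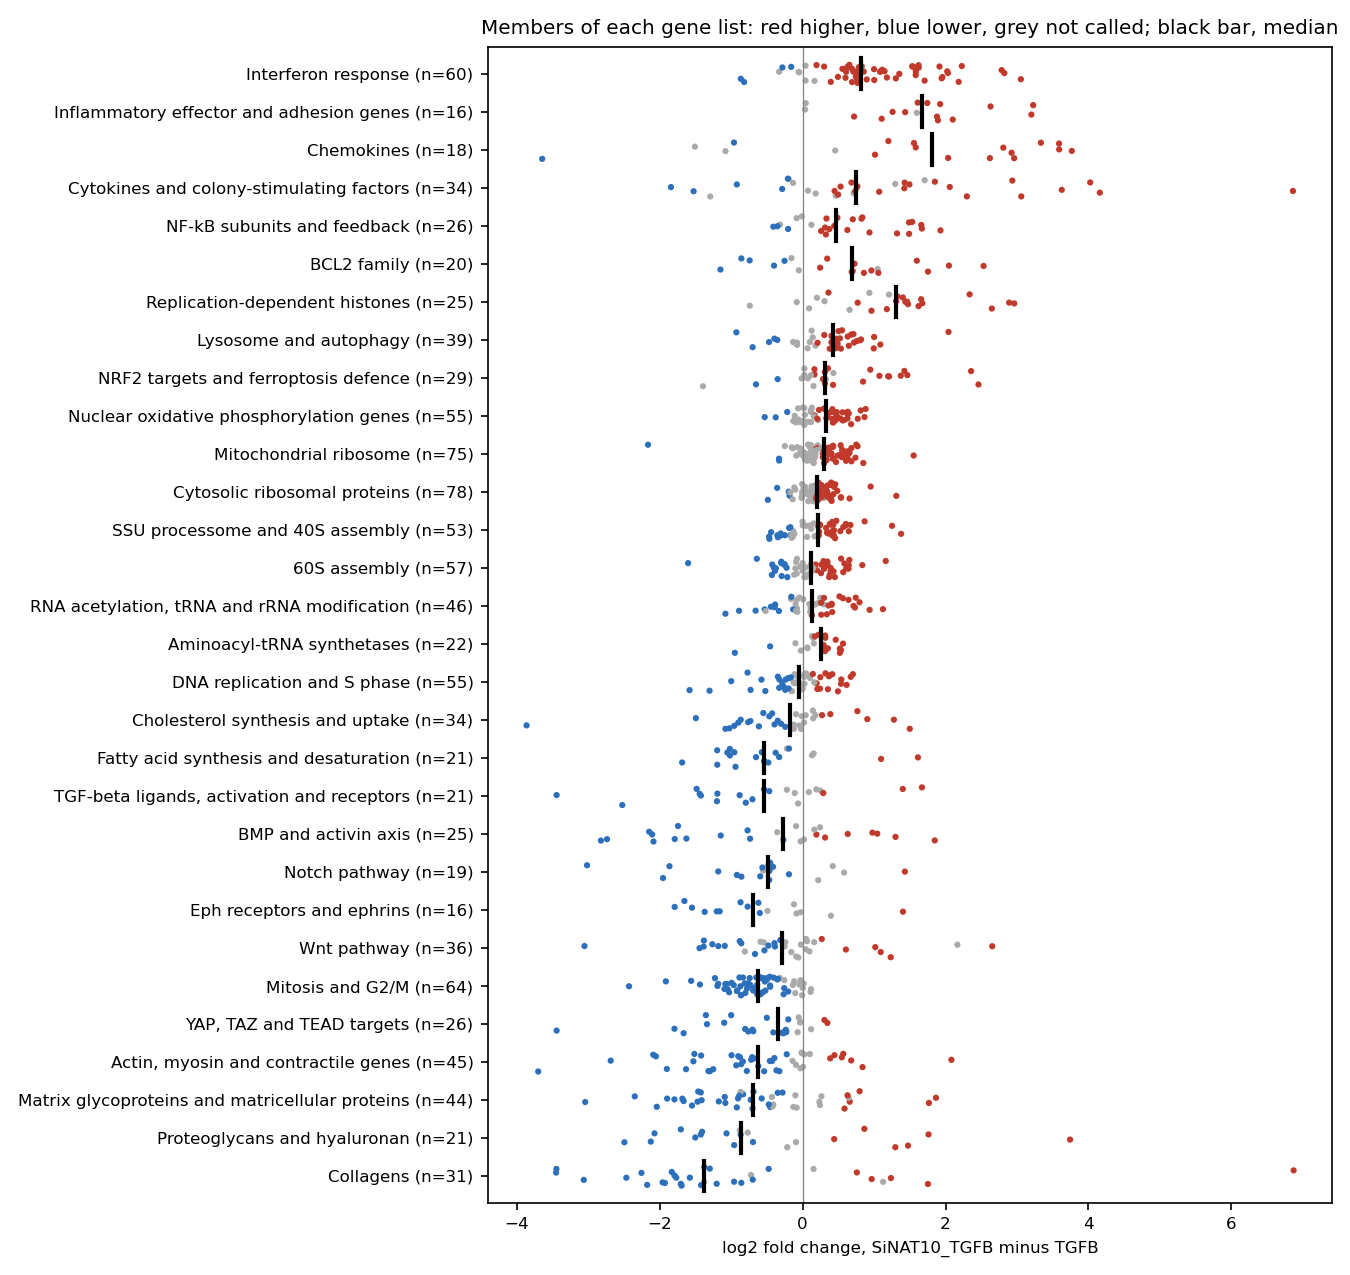
Log2 fold change (x axis, SiNAT10_TGFB minus TGFB) of every tested member of 30 gene lists (rows, with the number tested). Points are genes, red where higher, blue where lower and grey where not past an adjusted p of 0.05, and the black bar is the median: it lies at 1.81 for chemokines and at −1.38 for collagens.

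The machinery in which NAT10 works was examined first. Of 53 tested genes of the small-subunit processome and 40S assembly, 27 rose and 11 fell, with a median of 0.22. UTP3, a processome component (ENSG00000132467, chromosome 4 of hg38 from 70688479 to 70690551), stood at 43.7, 42.8 and 42.5 CPM in TGFB and at 110.4, 110.5 and 114 CPM in SiNAT10_TGFB, a log2 fold change of 1.38 with an SE of 0.069 and an adjusted p of 9.23e-14. The groups were well apart. IMP3, a protein of the U3 particle that guides pre-rRNA cleavage, rose by 1.25 (SE 0.098), with an antisense gene over 59.3% of its exon bases, where reads of the 2 genes may not have been told apart. UTP25 and NGDN, further processome proteins, rose by 0.87 (SE 0.07) and 0.65 (SE 0.072). The large scaffold proteins went the other way: HEATR1 fell by 0.47 (SE 0.066, 23.2% antisense overlap) and UTP20 fell by 0.31 (SE 0.06). UTP20 stood at −0.18 with library-size scaling and at −0.47 with the GC trend removed. BMS1, the GTPase of the particle, did not pass the threshold (0.05, adjusted p = 0.472). It was called higher with library-size scaling (0.18) and lower with the GC trend removed (−0.11).

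Large-subunit assembly and RNA polymerase I genes were divided in the same way. Of 57 genes of 60S assembly 25 rose and 14 fell, and of 36 genes of RNA polymerase I and the nucleolus 14 rose and 10 fell. Their medians of 0.12 and 0.10 became 0.25 and 0.23 with library-size scaling. With the GC trend removed the second became 0.00 (11 higher and 11 lower), and without TGFB replicate 3 the first became 0.07. ZNF622, a factor that keeps the new 60S subunit from joining too early, stood at 89.5, 86.5 and 86.1 CPM in TGFB and 181, 195 and 211 CPM in SiNAT10_TGFB, a rise of 1.16 (SE 0.062). RSL24D1, a placeholder protein of the pre-60S particle, rose by 0.83 (SE 0.091) and GNL2, a nucleolar GTPase, by 0.64 (SE 0.064). RRN3, which brings polymerase I to the rDNA promoter, rose by 0.93 (SE 0.065), and POLR1D, a polymerase subunit, by 0.78 (SE 0.064). TCOF1, the treacle protein of rDNA transcription, fell by 0.58 (SE 0.055; −0.37 with the GC trend removed). BOP1 and MYBBP1A also fell, by 0.64 (SE 0.098) and 0.55 (SE 0.076), but neither was called with the GC trend removed (−0.04 and −0.09). NCL, nucleolin, did not pass the threshold (−0.05, adjusted p = 0.413), and was called lower with the GC trend removed (−0.15).

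Ribosomal protein genes mostly moved by small amounts, and more of them rose than fell. Of 78 tested, 48 rose and 4 fell, and their summed level was 28954 to 30495 CPM in TGFB and 30277 to 35155 CPM in SiNAT10_TGFB, ranges that overlap. The median was 0.20, and 0.32 with library-size scaling. RPL15 rose from 669, 629 and 631 to 774, 879.8 and 891 CPM, by 0.40 (SE 0.057), and RPL23A rose by 0.66 (SE 0.087). RPL10, a large-subunit protein at the joining face, fell by 0.49 (SE 0.066), with 52.7% antisense overlap. RPS2 fell by 0.36 (SE 0.065; −0.23 with library-size scaling), shares 25.6% of its exon bases with another gene and was not called with the GC trend removed (−0.08). The ribosomal protein genes have many processed pseudogenes, whose reads the counting may have divided.

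Among enzymes that modify RNA, 18 of 46 rose and 10 fell, with a median of 0.13 (0.26 with library-size scaling). Beside THUMPD1, TRMT6, a subunit of the transfer RNA adenosine methyltransferase, rose from 42.4, 45.9 and 40.2 to 71.4, 75.8 and 76 CPM, by 0.80 (SE 0.072). WTAP, a subunit of the mRNA adenosine methylation complex, rose by 0.64 (SE 0.059). TRMT112, which activates several methyltransferases including that of 18S rRNA, rose by 0.71 (SE 0.07), with 17.5% antisense overlap. CTU2, which thiolates the wobble uridine of transfer RNAs, fell by 0.89 (SE 0.12; −0.35 with the GC trend removed), and ADAT2, a transfer RNA adenosine deaminase subunit, fell by 1.08 (SE 0.16; −0.43 on FPKM with a pseudocount of 1).

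Translation factors included an abundant gene that fell. EEF2, the elongation factor that moves the ribosome along mRNA (ENSG00000167658, chromosome 19 of hg38 from 3976056 to 3985469), stood at 1864, 1833 and 1978 CPM in TGFB and 714, 714 and 695 CPM in SiNAT10_TGFB, a log2 fold change of −1.42 with an SE of 0.065 and an adjusted p of 2.01e-14. All 3 siRNA libraries lay far below all 3 others. EEF1D, an exchange factor subunit, fell by 1.15 (SE 0.069; −0.70 with the GC trend removed), with 34% antisense overlap. EIF4EBP2, a repressor of cap-dependent initiation, rose from 101, 105 and 96.3 to 214, 204 and 209 CPM, by 1.06 (SE 0.064). EIF4A1, the initiation helicase, rose by 1.34 (SE 0.09), but 48.6% of its exon sequence is shared with another gene. EIF4A2, its relative, rose by 0.71 (SE 0.051, 10.5% of exon bases shared with another gene). EEF1A1, the factor that brings transfer RNAs to the ribosome, was at 0.11 (adjusted p = 0.0463), and 0.24 with library-size scaling. That call was lost with no count filter, with the GC trend removed (0.01), with the replicate block, with DESeq2, on FPKM and without any 1 of 5 of the 6 libraries. Over the 46 factors 21 rose and 8 fell, or 19 and 15 with the GC trend removed (median 0.11, 0.24 with library-size scaling and 0.05 with the GC trend removed). Of 22 aminoacyl-tRNA synthetases, the enzymes that charge transfer RNAs, 13 rose and 2 fell (median 0.26, 0.39 and 0.17 under the same settings). SARS and AARS, which charge serine and alanine transfer RNAs, rose by 0.56 (SE 0.059) and 0.52 (SE 0.055), while VARS, the valine enzyme, fell by 0.95 (SE 0.086; −0.42 with the GC trend removed).

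Genes of the TGF-β ligands, their activation and their receptors fell more often than they rose. Of 21 ligand, activation and receptor genes 12 fell and 3 rose, with a median of −0.54 that became −0.24 with the GC trend removed. FURIN, the protease that cleaves the TGF-β precursor, stood at 461, 446 and 479 CPM in TGFB and 181, 173 and 157 CPM in SiNAT10_TGFB, a fall of 1.44 (SE 0.074; −0.95 with the GC trend removed). LTBP4, which stores latent TGF-β in the matrix, fell by 1.42 (SE 0.09; −0.80 with the GC trend removed). TGFBR3, the co-receptor betaglycan, rose from 4.88, 4.38 and 4.29 to 13.5, 13.9 and 15.8 CPM, by 1.67 (SE 0.12; 0.81 on FPKM with a pseudocount of 1). TGFBR1, the type I receptor kinase, stood at 135, 143 and 130.3 CPM in TGFB and 77, 69.6 and 74.5 CPM in SiNAT10_TGFB, a fall of 0.88 (SE 0.068).

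Feedback genes and direct targets of the pathway were called in each direction at shares not far above those over all genes. Of 20, 6 rose and 7 fell (10 and 6 with the GC trend removed) around a median close to 0, which became 0.13 with library-size scaling and 0.27 with the GC trend removed. TGFBI, a secreted matrix protein named for its induction by TGF-β (ENSG00000120708, chromosome 5 of hg38 from 136028895 to 136063818), stood at 7952, 7611 and 7958 CPM in TGFB and 2862, 2735 and 2883 CPM in SiNAT10_TGFB, a log2 fold change of −1.47 with an SE of 0.05 and an adjusted p of 1.26e-16. PMEPA1, which sits in membranes and restrains SMAD activation, fell from 368, 348 and 371 to 245, 217 and 227 CPM, by 0.66 (SE 0.066). ADAM19, a membrane metalloprotease, fell by 0.74 (SE 0.055). Against these, SMURF2, a ubiquitin ligase that removes SMADs and receptors, rose from 297, 301 and 297 to 659.8, 665 and 670.4 CPM, by 1.16 (SE 0.051). HMGA2, a chromatin protein induced by TGF-β in many epithelia, rose by 1.55 (SE 0.075). SMAD7, the inhibitory SMAD, stood at 86.4, 86 and 82.4 CPM in TGFB and 88.4, 87.3 and 83.6 CPM in SiNAT10_TGFB, and did not pass the threshold (0.03, adjusted p = 0.788). It was called higher with the GC trend removed (0.39).

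On the BMP and activin side, 12 of 25 genes fell and 7 rose. The median was −0.27, and −0.14 with library-size scaling, −0.13 on FPKM with a pseudocount of 1 and −0.12 without SiNAT10_TGFB replicate 1. ID1, a helix-loop-helix inhibitor and standard BMP target, stood at 54, 46 and 49.1 CPM in TGFB and 9.89, 13.1 and 12.1 CPM in SiNAT10_TGFB, a fall of 2.09 (SE 0.1). ID2, of the same family, rose from 5.16, 3.67 and 4.32 to 7.98, 9.83 and 9.35 CPM, by 1.04 (SE 0.14). FSTL3, an activin-binding inhibitor, fell by 1.74 (SE 0.082) and INHBB, an activin subunit, by 1.63 (SE 0.11). GDF6, a BMP ligand, had 99, 103 and 80 counts in the TGFB libraries and 1, 3 and 0 in the SiNAT10_TGFB libraries. It was the only gene with at least 30 counts in every TGFB library and at most 3 in every SiNAT10_TGFB library. GREM1, a BMP antagonist, rose by 0.19 (SE 0.05), 0.32 with library-size scaling, and was not called with the GC trend removed (0.01). Among 28 transcription factors of mesenchymal identity 11 fell and 7 rose (median −0.17, −0.04 with library-size scaling, 0.03 with the GC trend removed and −0.11 without SiNAT10_TGFB replicate 3). TCF4 fell by 1.31 (SE 0.081) and FOXC2 by 1.18 (SE 0.13; −0.64 with the GC trend removed), and KLF4, a factor that keeps smooth muscle genes in check, rose from 12.2, 13.7 and 13.2 to 74.3, 74.9 and 68.4 CPM, by 2.48 (SE 0.09).

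Collagens were the list with the lowest median. Of 31 tested 22 fell and 5 rose, with a median of −1.38, or −0.67 on FPKM with a pseudocount of 1. Fibrillar and basement membrane chains were among those that fell. COL5A3, a minor fibrillar chain, stood at 13.7, 11.8 and 16.9 CPM in TGFB and 0.729, 1.27 and 1.88 CPM in SiNAT10_TGFB, a log2 fold change of −3.45 with an SE of 0.23 and an adjusted p of 1.38e-11, which was −1.37 on FPKM with a pseudocount of 1. The chains that rose included COL17A1, a hemidesmosome collagen of epithelia, from 5.43, 5.59 and 4.76 to 19.6, 16 and 17.6 CPM, by 1.75 (SE 0.13; 1.01 on FPKM with a pseudocount of 1), and COL4A6, a chain of specialised basement membranes, by 1.24 (SE 0.11; 0.56 on that scale). Of 34 genes of collagen folding, modification and cross-linking 18 fell and 4 rose, or 16 and 8 with the GC trend removed. Their median of −0.29 became −0.16 with library-size scaling, −0.19 with the GC trend removed and −0.17 on FPKM with a pseudocount of 1. FKBP9 and FKBP10, prolyl isomerases of the ER, fell by 1.99 (SE 0.073) and 1.39 (SE 0.059). PLOD3, which hydroxylates and glycosylates collagen lysines, fell from 228, 219 and 228 to 78.8, 75.6 and 79.1 CPM, by 1.53 (SE 0.072). LOXL2, a cross-linking oxidase, did not pass the threshold (−0.04, adjusted p = 0.601) and was called higher with the GC trend removed (0.30). TMEM38B, an ER potassium channel needed for collagen secretion, rose by 0.79 (SE 0.11), and MIA3, which loads procollagen into transport vesicles, rose by 0.40 (SE 0.064; 0.23 with the GC trend removed).

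Of 44 matrix glycoproteins and matricellular proteins 27 fell and 6 rose, with a median of −0.70 (−0.39 on FPKM with a pseudocount of 1). THBS1, thrombospondin 1, which can release active TGF-β from its latent complex, stood at 2373, 2508 and 2475 CPM in TGFB and 803, 757 and 729 CPM in SiNAT10_TGFB, a fall of 1.68 (SE 0.054). FBN1, the microfibril protein fibrillin 1, fell from 944, 995 and 1012 to 633, 569 and 580.0 CPM, by 0.73 (SE 0.061). SPARC, a collagen-binding matricellular protein, stood at 1808, 1778 and 1857 CPM in TGFB and 1664, 1721 and 1747 CPM in SiNAT10_TGFB and did not pass the threshold (−0.08, adjusted p = 0.162). It was called lower with the GC trend removed (−0.18). LAMA4, a laminin chain, rose from 7.47, 6.99 and 7.12 to 25.5, 23.4 and 24.5 CPM, by 1.77 (SE 0.094; 0.95 on FPKM with a pseudocount of 1).

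Proteoglycans fell in 11 of 21 cases and rose in 6 (median −0.87, −0.44 with the GC trend removed and −0.18 on FPKM with a pseudocount of 1). HSPG2, the basement membrane proteoglycan perlecan, stood at 216, 208 and 239 CPM in TGFB and 58.5, 49.4 and 43.8 CPM in SiNAT10_TGFB, a fall of 2.13 (SE 0.14), with 11.7% antisense overlap. The syndecans went in opposite directions. SDC3 and SDC1 fell by 2.07 (SE 0.075) and 1.41 (SE 0.061), whereas SDC4, the focal adhesion syndecan, rose from 269.8, 277 and 271 to 489, 489 and 511 CPM, by 0.86 (SE 0.051). VCAN, versican, fell by 1.71 (SE 0.093), and SRGN, the granule proteoglycan serglycin, rose by 1.30 (SE 0.074). CD44, the hyaluronan receptor, did not pass the threshold (−0.09, adjusted p = 0.133) and was called lower with the GC trend removed (−0.21).

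Receptors for the matrix divided too, with 8 of 20 integrins and collagen receptors lower and 4 higher around a median of 0.00, counts that were 5 and 6 with library-size scaling and 8 and 7 with the GC trend removed. ITGA2, the subunit of the collagen-binding integrin, stood at 67.8, 74.2 and 65.1 CPM in TGFB and 405, 351 and 408 CPM in SiNAT10_TGFB, a log2 fold change of 2.49 with an SE of 0.085 and an adjusted p of 1.26e-16. DDR1, the collagen receptor kinase, fell from 107, 103 and 107 to 29.3, 32.4 and 26.1 CPM, by 1.85 (SE 0.081). ITGA3, a laminin receptor subunit, fell by 0.96 (SE 0.062; −0.48 with the GC trend removed), and ITGAV, part of the integrins that activate TGF-β, fell by 0.70 (SE 0.077). Of 42 matrix proteases and their inhibitors 16 rose and 16 fell. TIMP2, an inhibitor of metalloproteases, fell from 504, 488 and 503 to 209, 196 and 195 CPM, by 1.32 (SE 0.051), and ADAMTS12, a secreted metalloprotease, rose from 216, 221 and 225 to 605, 575 and 605 CPM, by 1.43 (SE 0.05). The stromelysin genes MMP3 and MMP10 had 1, 2 and 0 and 1, 0 and 2 counts in TGFB, and 52, 60 and 50 and 45, 47 and 36 counts in SiNAT10_TGFB.

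The contractile apparatus was lower across most of its parts, with 30 of 45 actin, myosin and associated genes falling, 7 rising and a median of −0.62. ACTG2, a smooth muscle actin (ENSG00000163017, chromosome 2 of hg38 from 73892314 to 73919865), stood at 99, 98.8 and 101 CPM in TGFB and 13.5, 16.7 and 16.2 CPM in SiNAT10_TGFB, a log2 fold change of −2.69 with an SE of 0.093 and an adjusted p of 1.4e-16. ACTC1, the cardiac actin, fell from 30.1, 31.2 and 32.3 to 3.09, 1.92 and 2.14 CPM, by 3.70 (SE 0.15; −2.36 on FPKM with a pseudocount of 1). Cytoplasmic isoforms fell too. MYH9, the heavy chain of nonmuscle myosin, stood at 6891, 6979 and 7264 CPM in TGFB and 2586, 2419.6 and 2384 CPM in SiNAT10_TGFB, a fall of 1.52 (SE 0.055). ACTB, cytoplasmic beta-actin and often a reference gene, fell from 9197, 9209.8 and 9474 to 4934, 5106 and 4593 CPM, by 0.93 (SE 0.065), and ACTG1 fell by 0.84 (SE 0.056; −0.51 with the GC trend removed). MYL12A, a regulatory light chain, rose by 0.57 (SE 0.063), and MYOCD, the coactivator of smooth muscle genes, rose from 20.7, 21 and 21.3 to 39.4, 37.7 and 35.6 CPM, by 0.84 (SE 0.086). Of 26 targets and parts of the YAP, TAZ and TEAD pathway, which reports on cell tension, 19 fell and 2 rose, with a median of −0.35. The counts were 13 and 3 with library-size scaling (median −0.22), and 19 and 4 with the GC trend removed. CRIM1, a membrane protein that binds growth factors, fell by 1.35 (SE 0.052), AJUBA, a scaffold of the Hippo pathway, by 1.10 (SE 0.055), and CYR61 by 0.70 (SE 0.055). LATS1 and LATS2, the kinases that restrain YAP, rose by 0.30 (SE 0.074) and 0.35 (SE 0.059), and LATS1 was not called with the GC trend removed (0.13).

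Cell-to-cell signalling receptors were mostly lower. NOTCH3, the Notch receptor of mural cells (ENSG00000074181, chromosome 19 of hg38 from 15159038 to 15200981), stood at 48.5, 41.1 and 57 CPM in TGFB and 7.95, 3.99 and 6.05 CPM in SiNAT10_TGFB, a log2 fold change of −3.02 with an SE of 0.17 and an adjusted p of 5.13e-13, or −1.92 on FPKM with a pseudocount of 1. JAG1, a Notch ligand, fell from 307, 316 and 329.7 to 91.3, 78.3 and 92 CPM, by 1.86 (SE 0.068), and LFNG, which glycosylates Notch receptors, by 1.95 (SE 0.11). NOTCH2 fell by 0.86 (SE 0.065). In all, 14 of 19 Notch pathway genes fell and 1 rose, with 9 and 1 when the GC trend was removed (median −0.48 and −0.21). The member that rose was DLL4, a Notch ligand, from 1.98, 1.55 and 1.18 to 4.3, 4.99 and 3.48 CPM, by 1.43 (SE 0.22; 0.51 on FPKM with a pseudocount of 1). Of 16 Eph receptors and ephrins 10 fell and 1 rose, or 6 and 3 with the GC trend removed (median −0.70, −0.29 with that trend removed and −0.43 on FPKM with a pseudocount of 1). EPHB4 fell from 94.8, 96.2 and 97.9 to 33.1, 32.4 and 26.2 CPM, by 1.66 (SE 0.087), EPHB2 by 1.55 (SE 0.082) and the ligand EFNB3 by 1.79 (SE 0.11). EPHA4 rose from 6.33, 6.43 and 7.66 to 18.2, 18 and 17.9 CPM, by 1.40 (SE 0.11; 0.84 on FPKM with a pseudocount of 1).

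Wnt pathway genes fell in 15 of 36 cases and rose in 6. Their median of −0.28 became −0.15 with library-size scaling, −0.14 with the GC trend removed and −0.12 on FPKM with a pseudocount of 1. SFRP1, a secreted Wnt antagonist, stood at 90.8, 87.6 and 85.1 CPM in TGFB and 11.6, 8.75 and 11.3 CPM in SiNAT10_TGFB, a log2 fold change of −3.05 with an SE of 0.097 and an adjusted p of 3.88e-17. The ligands WNT5A and WNT5B fell by 1.44 (SE 0.077) and 1.18 (SE 0.065), while WNT7B rose from 6.27, 6.03 and 5.64 to 39.6, 39.4 and 33.9 CPM, by 2.65 (SE 0.12). Of 36 growth factor ligands and receptors 15 fell and 12 rose. PDGFRB, the receptor for the main mitogen of stellate cells, fell from 65.7, 62.1 and 83.9 to 13.6, 9.75 and 11.9 CPM, by 2.58 (SE 0.12). EDN1, the vasoconstrictor endothelin 1, stood at 64, 76.5 and 64.9 CPM in TGFB and 21.9, 19.7 and 17.8 CPM in SiNAT10_TGFB, a fall of 1.79 (SE 0.094). KITLG, the ligand of the receptor KIT, rose from 9.17, 7.18 and 7.09 to 32.7, 32 and 35 CPM, by 2.09 (SE 0.13), and NRP1, a co-receptor for VEGF, rose by 1.35 (SE 0.071).

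**Figure D2:**
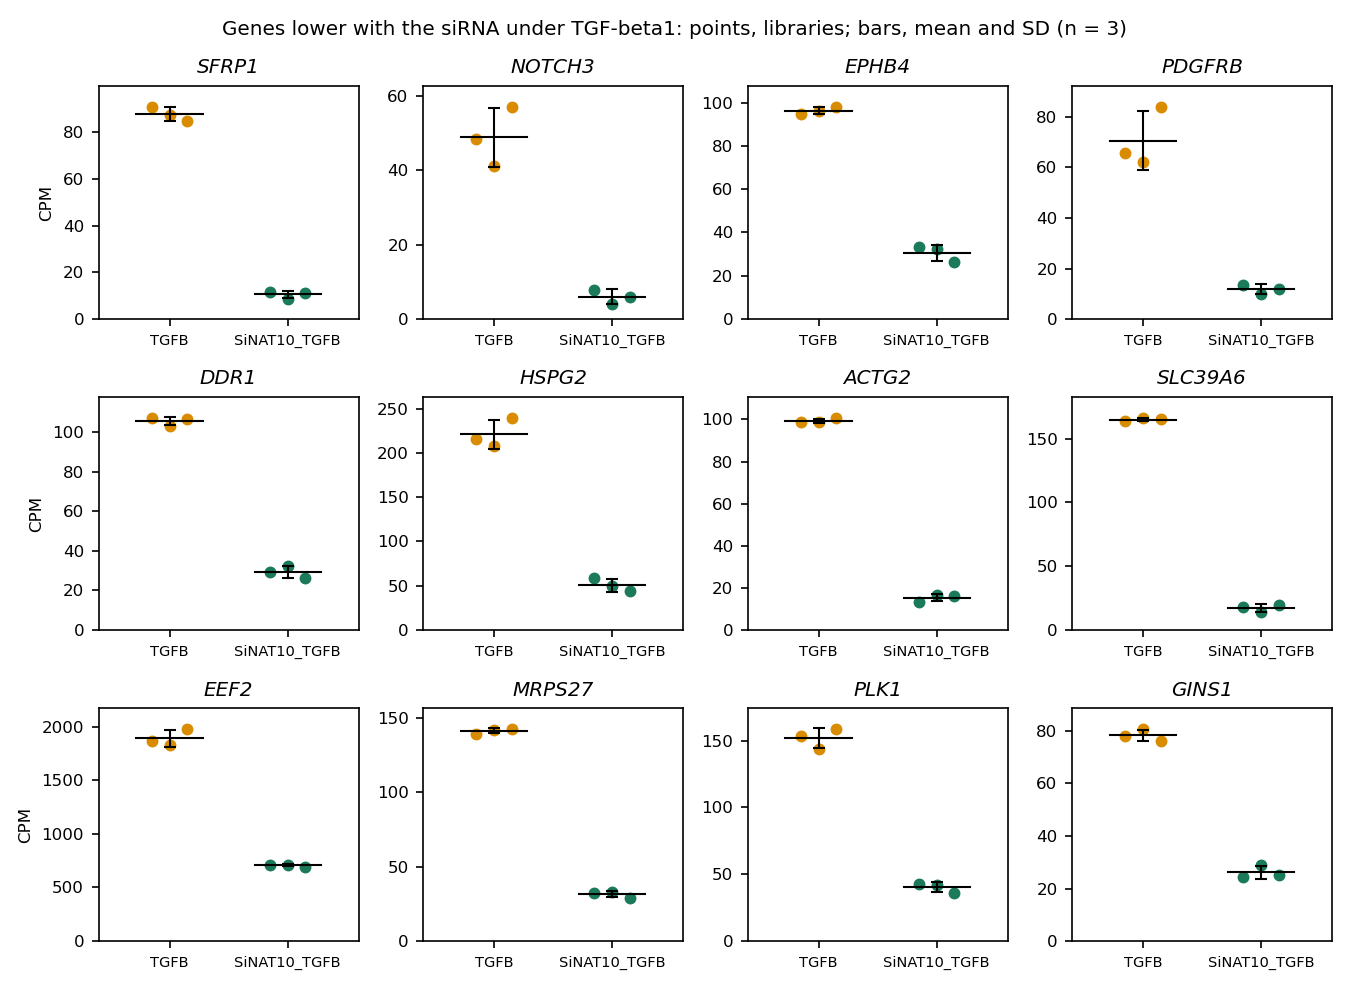
Levels (y axis, CPM from 0) of 12 genes that fell, one panel each, in the TGFB and SiNAT10_TGFB groups; points are libraries, and bars are the mean and SD (n = 3). In each panel the 3 SiNAT10_TGFB libraries lie below the 3 TGFB libraries, for SFRP1 at 11.6, 8.75 and 11.3 against 90.8, 87.6 and 85.1 CPM.

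Chemokines were the list with the highest median, except on FPKM with a pseudocount of 1, where that of replication-dependent histones was higher (0.76 against 0.72). Of 18 chemokines and their receptors 13 rose and 2 fell, with a median of 1.81. CXCL8, interleukin 8, an attractant of neutrophils (ENSG00000169429, chromosome 4 of hg38 from 73740506 to 73743716), stood at 40.6, 37.1 and 29.4 CPM in TGFB and 417, 506 and 536 CPM in SiNAT10_TGFB, a log2 fold change of 3.77 with an SE of 0.12 and an adjusted p of 6.13e-17. CXCL1, a ligand of the same receptor, rose from 16.5, 16.7 and 17 to 112, 135 and 133 CPM, by 2.92 (SE 0.087). CXCL5 rose from 4.66, 5.9 and 4.25 to 60.3, 64.6 and 54.2 CPM, by 3.59 (SE 0.11), and CXCL2 rose from 3.46, 2.86 and 3.34 to 19.9, 20.8 and 18.7 CPM, by 2.62 (SE 0.12). These are neutrophil attractants that lie in 1 cluster on chromosome 4. CCL5, a T cell attractant, rose from 75.2, 77.6 and 75.8 to 168, 160.4 and 197 CPM, by 1.20 (SE 0.072). CXCL16 fell by 0.96 (SE 0.2; −0.48 on FPKM with a pseudocount of 1).

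The promoters of CXCL1, CXCL2 and CXCL5 are shown because they carry the same binding motif of NF-κB, the transcription factor of inflammatory gene expression. The κB site was searched as GGGA, any base, TT, any base and CC, on either strand, from 250 bases before to 50 bases after the start in the RefSeq promoters of GRCh38.p14. It was found in 1.41% of 27305 promoters, in 6 of the 19 chemokine promoters that matched by name (31.6%), in 6 of 23 of NF-κB subunits and feedback genes (26.1%) and in 3 of 32 of cytokines (9.38%). All 6 chemokine genes with the motif rose, as did 4 of the 6 NF-κB subunit and feedback genes and 1 of the 3 cytokine genes that hold it. Over the whole lists 13 of 18, 19 of 26 and 20 of 34 tested genes rose. The chemokine genes with the motif were CXCL1, CXCL2, CXCL3, CXCL5, CXCL6 and CXCL10. CXCL8, CCL5 and CXCL16 were not among them. Other forms of the κB site were not searched, so a gene without this pattern may still hold one. The 200 bases before the start are given, with the motif in capitals, for CXCL1 (chr4:73869193-73869392, plus strand), CXCL2 (chr4:74099196-74099395, minus strand), CXCL5 (chr4:73998678-73998877, minus strand) and NFKBIA (chr14:35404750-35404949, minus strand). It begins 79, 78, 91 and 81 bases before the start.
CXCL1: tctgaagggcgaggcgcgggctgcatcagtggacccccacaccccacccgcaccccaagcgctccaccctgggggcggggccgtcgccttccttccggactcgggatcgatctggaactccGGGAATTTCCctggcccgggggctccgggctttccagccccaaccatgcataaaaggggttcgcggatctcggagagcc
CXCL2: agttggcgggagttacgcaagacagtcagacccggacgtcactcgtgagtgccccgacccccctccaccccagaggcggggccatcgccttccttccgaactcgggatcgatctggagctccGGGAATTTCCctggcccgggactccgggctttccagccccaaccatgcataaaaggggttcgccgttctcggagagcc
CXCL5: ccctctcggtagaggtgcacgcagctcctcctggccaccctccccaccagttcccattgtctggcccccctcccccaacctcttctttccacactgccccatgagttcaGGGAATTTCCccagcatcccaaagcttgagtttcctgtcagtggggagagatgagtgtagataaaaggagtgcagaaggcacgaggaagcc
NFKBIA: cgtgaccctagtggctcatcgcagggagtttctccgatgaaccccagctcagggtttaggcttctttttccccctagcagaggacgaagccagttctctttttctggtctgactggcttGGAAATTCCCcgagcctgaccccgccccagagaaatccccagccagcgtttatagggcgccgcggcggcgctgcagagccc
The same 10 letters stand in CXCL1, CXCL2 and CXCL5, and NFKBIA holds a match on the other strand. CXCL1 and CXCL2 also share long runs of letters outside the motif, so they need not be separate cases of it. A match of letters describes the sequence and does not show that a protein is bound there.

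Of 26 NF-κB subunits and feedback genes 19 rose and 3 fell, with a median of 0.46 (0.84 with the GC trend removed). NFKBIA, the inhibitor that holds NF-κB in the cytoplasm, stood at 53.3, 49 and 52.1 CPM in TGFB and 143, 155 and 149 CPM in SiNAT10_TGFB, a rise of 1.53 (SE 0.067). TNFAIP3, the deubiquitinase A20, rose from 44.1, 49.4 and 42.6 to 139.9, 143 and 149 CPM, by 1.67 (SE 0.067). TRAF1 and NFKBIZ, further products of the pathway, rose by 1.66 (SE 0.068) and 1.49 (SE 0.062). The subunits themselves moved less: RELB rose by 0.70 (SE 0.1), NFKB2 by 0.37 (SE 0.075) and NFKB1 by 0.31 (SE 0.061). With the GC trend removed RELB stood at 1.31 and NFKB2 at 0.89. TRAF3, a restraint on the noncanonical pathway, fell by 0.41 (SE 0.064; −0.27 with the GC trend removed). BCL3, a nuclear partner of the subunits, fell by 0.35 (SE 0.1), was not called with library-size scaling (−0.22) and was called higher with the GC trend removed (0.29).

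Among 34 cytokines and colony-stimulating factors 20 rose and 5 fell (median 0.75, 0.30 on FPKM with a pseudocount of 1). CSF2, the granulocyte-macrophage factor (ENSG00000164400, chromosome 5 of hg38 from 132073790 to 132076170), stood at 1.61, 1.49 and 1.52 CPM in TGFB and 24.3, 26.7 and 24.4 CPM in SiNAT10_TGFB, a log2 fold change of 4.03 with an SE of 0.15 and an adjusted p of 6.55e-16. IL6ST, the signal-transducing receptor of the interleukin 6 family, rose from 399, 411 and 369 to 808, 800.1 and 868 CPM, by 1.07 (SE 0.075). A pair of ligands of that family did not rise. LIF fell from 132, 126 and 125 to 41.4, 33 and 32.3 CPM, by 1.84 (SE 0.09), and IL6 stood at 35.5, 33.6 and 34.1 CPM in TGFB and 29.5, 29.3 and 31.6 CPM in SiNAT10_TGFB, below the threshold at −0.19 (adjusted p = 0.0664, 20.7% antisense overlap). IL6 was called lower with the GC trend removed (−0.32), with only the 2 groups fitted (−0.19) and on FPKM with a pseudocount of 1 (−0.18). Of 16 effector and adhesion genes 13 rose and none fell, with a median of 1.68 (0.41 on FPKM with a pseudocount of 1). SOD2, the mitochondrial superoxide dismutase, stood at 64.2, 63.7 and 53.5 CPM in TGFB and 361, 383 and 379 CPM in SiNAT10_TGFB, a rise of 2.63 (SE 0.093). TFPI2, a secreted protease inhibitor, rose from 55.5, 54.7 and 48.2 to 457, 514 and 487 CPM, by 3.20 (SE 0.089), and C3, the central complement component, rose by 3.23 (SE 0.13; 1.92 on FPKM with a pseudocount of 1). The tested macrophage and leukocyte markers, whose sum is given above, went both ways. CD14 went from 0.847, 0.559 and 1.08 FPKM in TGFB to 2.32, 2.41 and 1.85 FPKM in SiNAT10_TGFB. ITGAM went from 0.0864, 0.0817 and 0.0178 to 0.428, 0.413 and 0.415 FPKM. CSF1R fell from 1.1, 1.17 and 1.26 to 0.426, 0.336 and 0.599 FPKM. MARCO, C1QA, C1QB and C1QC had 3 counts or fewer in every library. The part of other cell types in these values was not tested.

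The interferon response rose in 50 of 60 tested genes and fell in 4, with a median of 0.81. IFIT3, an antiviral protein that binds foreign RNA with its relatives (ENSG00000119917, chromosome 10 of hg38 from 89327894 to 89340971), stood at 48.4, 52.3 and 50 CPM in TGFB and 217, 218 and 250.1 CPM in SiNAT10_TGFB, a log2 fold change of 2.18 with an SE of 0.07 and an adjusted p of 4.7e-17. OASL, which strengthens RNA sensing, rose from 37.5, 39.6 and 38.7 to 173, 172 and 197 CPM, by 2.23 (SE 0.081). ISG15, a ubiquitin-like modifier, rose from 62.4, 59.1 and 64.2 to 237, 256 and 262 CPM, by 2.02 (SE 0.077), and IFIT1 rose from 33.9, 35.4 and 32.7 to 97.4, 106 and 111 CPM, by 1.62 (SE 0.11). GBP1, a GTPase of the response to interferon gamma, fell from 119, 125 and 117 to 68.9, 60.9 and 74.5 CPM, by 0.82 (SE 0.075). IRF9, a transcription factor of the response, fell by 0.87 (SE 0.25; −0.31 on FPKM with a pseudocount of 1), shares 48.4% of its exon bases with another gene and was not called without TGFB replicate 3 (−0.56, adjusted p = 0.0851). ADAR, the RNA editing enzyme, fell by 0.16 (SE 0.054) and was not called with library-size scaling (−0.03), without TGFB replicate 3 (−0.15) or without SiNAT10_TGFB replicate 2 (−0.14).

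Promoters of the response are shown because most of them hold the interferon-stimulated response element. It was searched as a pair of GAAA blocks with any 2 bases between them, on either strand and in the same windows. It was found in 3.65% of all promoters and in 33 of the 51 matched promoters of the list (64.7%). Of the 31 tested genes with the motif 27 rose, against 50 of the 60 tested genes of the whole list. The 200 bases before the start of IFIT3 (chr10:89327797-89327996, plus strand) and IFIT1 (chr10:89392423-89392622, plus strand) follow, with each match in capitals.
IFIT3: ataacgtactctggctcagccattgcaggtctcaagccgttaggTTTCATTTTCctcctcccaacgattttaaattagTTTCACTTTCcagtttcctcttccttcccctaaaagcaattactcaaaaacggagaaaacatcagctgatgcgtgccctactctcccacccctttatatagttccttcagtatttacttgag
IFIT1: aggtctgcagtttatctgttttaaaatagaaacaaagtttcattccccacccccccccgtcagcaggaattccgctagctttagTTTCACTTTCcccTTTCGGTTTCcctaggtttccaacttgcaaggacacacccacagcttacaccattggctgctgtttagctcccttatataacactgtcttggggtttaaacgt
Each holds 2 matches, both as the reverse complement of the motif, 156 and 122 bases before the start in IFIT3 and 116 and 103 bases before it in IFIT1.

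Of 19 genes of interferon signalling and nucleic acid sensing 10 rose and 4 fell (median 0.49, 0.20 on FPKM with a pseudocount of 1). TMEM173, which encodes the DNA-sensing adaptor STING, stood at 34.9, 34.5 and 33.5 CPM in TGFB and 93.8, 94.2 and 91.6 CPM in SiNAT10_TGFB, a rise of 1.44 (SE 0.07). IFI16, a DNA sensor, rose from 37.8, 41.3 and 35.7 to 87.4, 85.3 and 82.3 CPM, by 1.15 (SE 0.072), and JAK1, a kinase of interferon receptors, rose by 0.63 (SE 0.053). Its partner TYK2 fell by 0.90 (SE 0.071; −0.42 with the GC trend removed). IFNB1, the ligand interferon beta, had few reads. It stood at 0.741, 0.373 and 0.135 CPM in TGFB and 0.833, 1.8 and 1.05 CPM in SiNAT10_TGFB, a log2 fold change of 1.53 with an SE of 0.52 and an adjusted p of 0.0158 that was 0.71 on FPKM with a pseudocount of 1. It was not called without TGFB replicate 3 (1.13) or without SiNAT10_TGFB replicate 2 (1.15). Of 21 genes of class I antigen presentation 11 rose and 7 fell (median 0.19, 0.32 with library-size scaling). B2M, the light chain, rose from 800.1, 798 and 772 to 1426, 1639 and 1692 CPM, by 1.00 (SE 0.059), ERAP2, which trims peptides, rose by 1.09 (SE 0.076), and NLRC5, the transactivator of these genes, fell from 110.2, 105 and 119.9 to 46.5, 46.4 and 43.3 CPM, by 1.30 (SE 0.078).

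**Figure D3:**
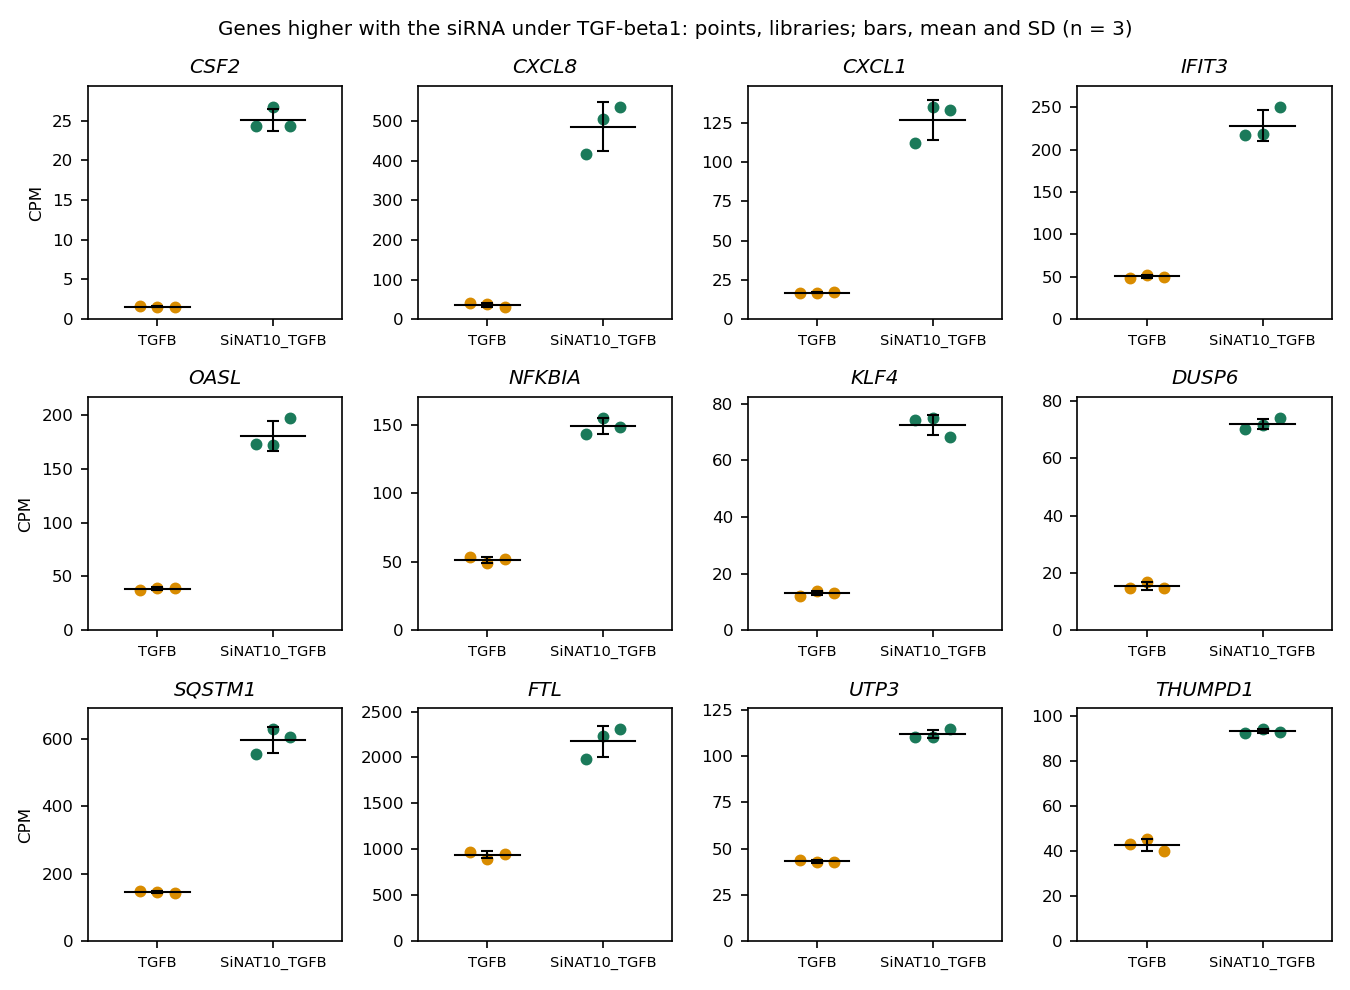
Levels (y axis, CPM from 0) of 12 genes that rose, one panel each, in the TGFB and SiNAT10_TGFB groups; points are libraries, and bars are the mean and SD (n = 3). In each panel the 3 SiNAT10_TGFB libraries lie above the 3 TGFB libraries, for CSF2 at 24.3, 26.7 and 24.4 against 1.61, 1.49 and 1.52 CPM.

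Early response genes of the MAP kinase pathway and their feedback also rose, 26 of 39 against 6 that fell, with a median of 0.55 (0.35 on FPKM with a pseudocount of 1). DUSP6, the phosphatase that switches off ERK, stood at 14.8, 17 and 14.6 CPM in TGFB and 70.4, 71.6 and 74 CPM in SiNAT10_TGFB, a rise of 2.22 (SE 0.082), with 40.5% antisense overlap. SPRY4, an inhibitor of growth factor signalling, rose from 25.2, 24.4 and 28.3 to 110.0, 103 and 96.4 CPM, by 1.99 (SE 0.083), and DUSP4 rose by 1.83 (SE 0.084). EGR1 and MYC went the other way. EGR1 fell from 216, 203 and 191 to 120.5, 106 and 106 CPM, by 0.88 (SE 0.077), and MYC from 155, 147 and 149.5 to 104, 109 and 97.1 CPM, by 0.54 (SE 0.071). JUN, a subunit of the factor AP-1, rose by 0.20 (SE 0.061), and stood at 0.33 with library-size scaling and 0.47 with the GC trend removed.

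SERTAD1 stood at 35.9, 35.4 and 34.4 CPM in TGFB and 89.6, 111 and 103 CPM in SiNAT10_TGFB, a rise of 1.52 (SE 0.085). SESN2, a stress-induced inhibitor of mTORC1, rose from 23.5, 20.6 and 21.9 to 56.9, 60.6 and 48.2 CPM, by 1.33 (SE 0.099). MDM2, a ubiquitin ligase, rose by 0.86 (SE 0.08). APAF1, the scaffold of the apoptosome, fell from 49.7, 49.2 and 50.5 to 28.5, 25.1 and 27.6 CPM, by 0.88 (SE 0.087). Of 20 BCL2 family genes 12 rose and 5 fell (median 0.69, 0.36 on FPKM with a pseudocount of 1). Both arms of the family were among them. The death-promoting PMAIP1 (NOXA) rose from 78.4, 86.4 and 75.3 to 222, 241 and 264 CPM, by 1.60 (SE 0.083), and BMF rose from 5.53, 5.87 and 6.55 to 27.7, 23.8 and 22.7 CPM, by 2.05 (SE 0.13). The survival genes MCL1 and BCL2A1 rose by 0.96 (SE 0.057) and 1.75 (SE 0.11). BOK fell by 1.15 (SE 0.084; −0.54 with the GC trend removed), and BCL2L2 fell by 0.86 (SE 0.096) with 19.4% of its exon bases shared with another gene.

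Mitosis genes fell without exception among those called, 52 of 64 against none that rose, with a median of −0.62. PLK1, the polo-like kinase of mitotic entry (ENSG00000166851, chromosome 16 of hg38 from 23677656 to 23690367), stood at 154, 144 and 159 CPM in TGFB and 43, 41.7 and 36.3 CPM in SiNAT10_TGFB, a log2 fold change of −1.91 with an SE of 0.078 and an adjusted p of 2.47e-15, with 12.5% antisense overlap. KIF20A, a kinesin of cell division, fell from 226, 220.2 and 235 to 77.3, 73.7 and 79.9 CPM, by 1.56 (SE 0.059). CCNB1, cyclin B1, fell from 508, 484 and 483 to 221, 237 and 238 CPM, by 1.08 (SE 0.057), and AURKA, a spindle kinase, by 0.99 (SE 0.064). CDK1, the kinase that cyclin B1 activates, fell less, from 132, 140.2 and 118 to 93.6, 91.3 and 99.4 CPM, by 0.46 (SE 0.091).

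The promoters of mitosis genes are known for a pair of motifs, the cell cycle homology region TTTGAA and the CCAAT box. Either strand was searched in the same windows, which follow RefSeq's gene starts, and the motifs can overlap. TTTGAA was found in 15.4% of all promoters and in 39 of the 57 matched promoters of the list (68.4%). CCAAT was found in 35.7% and in 43 of 57 (75.4%). Of the 39 tested genes with TTTGAA 34 fell, and of the 43 with CCAAT 34 fell, against 52 of the 64 tested genes of the whole list. The 200 bases before the start of PLK1 (chr16:23678689-23678888, plus strand) and MKI67 (chr10:128126424-128126623, minus strand) are given with both motifs in capitals.
PLK1: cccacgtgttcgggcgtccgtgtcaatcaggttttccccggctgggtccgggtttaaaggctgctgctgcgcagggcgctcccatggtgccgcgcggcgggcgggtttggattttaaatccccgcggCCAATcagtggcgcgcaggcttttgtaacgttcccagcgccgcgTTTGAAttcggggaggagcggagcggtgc
MKI67: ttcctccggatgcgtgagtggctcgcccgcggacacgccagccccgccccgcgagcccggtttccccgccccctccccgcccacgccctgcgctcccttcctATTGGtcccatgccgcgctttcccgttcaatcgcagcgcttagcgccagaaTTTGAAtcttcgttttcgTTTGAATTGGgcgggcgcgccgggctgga
In PLK1 the CCAAT box begins 73 bases and TTTGAA 29 bases before the start. MKI67, the gene of the proliferation antigen Ki-67, holds TTTGAA 47 and 29 bases before the start and the reverse complement of CCAAT at 98 and 24 bases, the last of which overlaps a TTTGAA.

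Genes that act earlier in the cell cycle were called in each direction at shares near those over all genes. Of 55 DNA replication genes 19 fell and 16 rose around a median of −0.06, which was 0.07 with library-size scaling (9 lower and 21 higher). GINS1, part of the replicative helicase, fell from 78.1, 80.7 and 76.2 to 24.3, 28.8 and 25.3 CPM, by 1.58 (SE 0.077), and LIG1, the replicative ligase, by 1.00 (SE 0.07). MCM4, a helicase subunit, was at 0.05 (adjusted p = 0.425) and was called higher with library-size scaling (0.18). RPA2, a single-strand binding protein, rose by 0.70 (SE 0.068). Of 31 G1 cyclins, kinases and inhibitors 10 rose and 9 fell (14 and 7 with the GC trend removed) around a median of −0.04, which turned to 0.09 with library-size scaling and to 0.08 with the GC trend removed. SKP2, the ubiquitin ligase subunit that degrades p27, fell from 86.8, 82.9 and 80.9 to 36.3, 35.2 and 40.9 CPM, by 1.16 (SE 0.079), and CDKN1B, which encodes p27, rose from 43.7, 40 and 38.5 to 66.2, 69.4 and 70.2 CPM, by 0.75 (SE 0.079). CDC25A, the phosphatase that promotes entry into S phase, rose by 0.97 (SE 0.065), and E2F7, a repressor of replication genes, rose from 116, 117 and 109.6 to 283, 274 and 292 CPM, by 1.31 (SE 0.064). CCND1, cyclin D1 (10.3% antisense overlap), did not pass the threshold (0.05, adjusted p = 0.462) and was called higher with library-size scaling (0.18). Of 47 DNA repair genes 14 rose and 11 fell, shares near those over all genes. The counts were 19 and 10 with library-size scaling and turned to 11 and 19 with the GC trend removed. Of 25 replication-dependent histone genes 17 rose and none fell (median 1.31, 0.76 on FPKM with a pseudocount of 1), and HIST1H2BD rose from 11.2, 10.5 and 9.62 to 28.6, 27 and 31.6 CPM, by 1.48 (SE 0.099). Most transcripts of these genes lack a poly(A) tail, and the way RNA was selected was not given in the sources used here.

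Stress pathways were mixed. Of 32 genes of the ATF4 and amino acid response 16 rose and 10 fell (median 0.25, 0.38 with library-size scaling and 0.15 on FPKM with a pseudocount of 1). PPP1R15A, which reverses the phosphorylation of the initiation factor eIF2, stood at 105, 104 and 96.7 CPM in TGFB and 436, 462 and 396 CPM in SiNAT10_TGFB, a rise of 2.08 (SE 0.063). DDIT3, the factor CHOP, rose from 7.87, 6.9 and 8.1 to 26.1, 28.9 and 29.6 CPM, by 1.89 (SE 0.1), with 31.6% antisense overlap, and ATF3 rose by 1.62 (SE 0.075). ATF4 itself rose by 0.47 (SE 0.051; 0.73 with the GC trend removed). Amino acid transporters went in opposite directions. SLC3A2, the heavy chain that SLC7A5 needs at the membrane, rose from 318, 304 and 306 to 739, 829 and 775 CPM, by 1.34 (SE 0.061), and SLC7A1, an arginine transporter, fell from 1614, 1665 and 1674 to 668, 636 and 605 CPM, by 1.38 (SE 0.051).

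Of 29 NRF2 targets and ferroptosis defence genes 17 rose and 2 fell (median 0.31, 0.20 on FPKM with a pseudocount of 1). FTL, the ferritin light chain, among the 10 highest genes per length, stood at 971, 898 and 953 CPM in TGFB and 1985, 2236 and 2308 CPM in SiNAT10_TGFB, a rise of 1.21 (SE 0.054). TXNRD1, thioredoxin reductase, rose from 175, 183 and 175 to 451, 476 and 505 CPM, by 1.42 (SE 0.055), and NQO1, a quinone reductase, rose by 1.37 (SE 0.066), with 17.7% antisense overlap. ME1, malic enzyme, fell by 0.65 (SE 0.09). KEAP1, the sensor that degrades NRF2, fell by 0.35 (SE 0.088), stood at −0.22 with library-size scaling and was not called with the GC trend removed (0.09). Of 39 lysosome and autophagy genes 26 rose and 5 fell, with a median of 0.42. SQSTM1, the autophagy receptor p62 (ENSG00000161011, chromosome 5 of hg38 from 179806398 to 179838078), stood at 148, 145 and 142 CPM in TGFB and 555, 629.8 and 607 CPM in SiNAT10_TGFB, a log2 fold change of 2.04 with an SE of 0.061 and an adjusted p of 1.76e-17, with 22% antisense overlap. MAP1LC3B, the autophagosome protein LC3, rose from 75.1, 72.4 and 66.9 to 138, 149 and 140.4 CPM, by 0.99 (SE 0.07), while LAMP1, a lysosomal membrane protein, fell by 0.70 (SE 0.06).

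Protein folding genes of the ER fell in 15 of 37 cases and rose in 10, with a median of −0.10 that was −0.07 with the GC trend removed and turned to 0.03 with library-size scaling (11 lower and 15 higher). HYOU1, an ER chaperone, fell from 560.0, 545 and 569 to 312, 296 and 287 CPM, by 0.90 (SE 0.052), and CREB3L1, a transcription factor of collagen secretion, fell from 250.1, 238 and 254 to 95.8, 89.4 and 77 CPM, by 1.50 (SE 0.074). ERN1, the stress sensor IRE1, rose by 1.00 (SE 0.076) and DNAJB9, a co-chaperone, by 1.53 (SE 0.13). Of 34 heat shock genes 18 rose and 4 fell (median 0.13, 0.26 with library-size scaling). HSP90AA1 rose by 0.38 (SE 0.054), and HSPB1, the small heat shock protein HSP27, fell by 0.99 (SE 0.1; −0.41 with the GC trend removed). Of 33 proteasome subunits 16 rose and 1 fell, 26 and 1 with library-size scaling and 14 and 4 with the GC trend removed (median 0.19, 0.32 with that scaling and 0.10 with the GC trend removed). The subunit that fell was PSMD3, from 400.0, 372 and 397 to 244, 244 and 240.3 CPM, by 0.68 (SE 0.064).

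Lipid synthesis genes fell more often than they rose. Among 21 genes that make or desaturate fatty acids 16 fell and 2 rose, with a median of −0.54, and of 34 cholesterol synthesis and uptake genes 17 fell and 6 rose, with a median of −0.18 (−0.05 with library-size scaling). SCD, which desaturates fatty acids, stood at 687, 667 and 716 CPM in TGFB and 327, 325 and 345 CPM in SiNAT10_TGFB, a fall of 1.05 (SE 0.064). FADS2 and FADS3 fell by 1.20 (SE 0.084) and 1.20 (SE 0.076). SREBF1, the transcription factor of lipid synthesis, fell from 81.9, 74.6 and 92.3 to 34.4, 27.9 and 25.9 CPM, by 1.50 (SE 0.11; −0.96 with the GC trend removed). NPC1, which exports cholesterol from lysosomes, rose by 0.91 (SE 0.061).

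Nuclear genes of mitochondria mostly rose by small amounts while mitochondrial transcripts divided. Of 55 nuclear genes of oxidative phosphorylation 32 rose and 3 fell (median 0.33; 37 and 6 with the GC trend removed), and of 75 genes of the mitochondrial ribosome 42 rose and 3 fell (median 0.30; 52 and 6 with that trend removed). SDHB, a subunit of complex II, rose from 48.5, 44.5 and 44.9 to 70.3, 90.2 and 81.5 CPM, by 0.81 (SE 0.086), and MRPS30, a mitochondrial ribosomal protein, from 65.8, 61.4 and 63.4 to 96.9, 115 and 109 CPM, by 0.75 (SE 0.069). MRPS27 was among the 3 that fell. This mitochondrial ribosomal protein gene (ENSG00000113048, chromosome 5 of hg38 from 72219409 to 72320646) stood at 139, 142 and 142 CPM in TGFB and 32.3, 33.1 and 29.1 CPM in SiNAT10_TGFB, a log2 fold change of −2.16 with an SE of 0.084 and an adjusted p of 1.11e-15. Of the 13 mRNAs encoded in the mitochondrion 7 fell and 3 rose (median −0.30, −0.17 with library-size scaling and −0.46 with the GC trend removed). MT-CYB fell from 1921, 1811 and 1870.4 to 1309, 1231 and 1223 CPM, by 0.57 (SE 0.046), and MT-ND1 rose from 838, 801 and 801 to 1282, 1202 and 1139 CPM, by 0.57 (SE 0.053). MT-CO1 did not pass the threshold (0.01, adjusted p = 0.846). It was called higher with library-size scaling (0.14) and lower with the GC trend removed (−0.09). Of 34 glycolysis and hypoxia genes 15 rose and 8 fell (median 0.10, 0.23 with library-size scaling, 0.17 with the GC trend removed and 0.06 without SiNAT10_TGFB replicate 2). SLC2A3, a glucose transporter, rose from 39.6, 40.3 and 41.1 to 153, 148 and 163 CPM, by 1.94 (SE 0.064), and PFKM, a phosphofructokinase, fell by 1.09 (SE 0.068).

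Genes of the quiescent, vitamin A-storing stellate cell were called about as often as all genes. Of 21 quiescence and retinoid genes 6 rose and 5 fell, or 7 and 3 with library-size scaling and 8 and 3 with the GC trend removed, with a median of −0.03 that became 0.10 with library-size scaling and 0.30 with the GC trend removed. PLIN2, a lipid droplet coat protein, rose from 9.14, 10.7 and 13.6 to 23.9, 29.1 and 25.2 CPM, by 1.23 (SE 0.12), and ALDH1A3, which makes retinoic acid, rose by 0.79 (SE 0.094), with 27.5% antisense overlap. CYP26B1, which degrades retinoic acid, fell by 0.67 (SE 0.11; −0.40 with the GC trend removed). Of 22 keratin and junction genes 5 rose and 9 fell, or 10 and 9 with library-size scaling (median 0.07, 0.21 with that scaling). CLDN1, a tight junction claudin, rose from 4.97, 5.72 and 6.51 to 35.8, 33.9 and 39.3 CPM, by 2.67 (SE 0.11). CDH11 and CDH2, cadherins of mesenchymal cells, fell by 1.52 (SE 0.061) and 0.97 (SE 0.051). Of 11 metallothionein and zinc transport genes 5 rose and 3 fell around a median of −0.14, which was −0.01 with library-size scaling and 0.05 with the GC trend removed. MT2A, a metal-binding metallothionein, rose by 0.58 (SE 0.075), and MT1F, another, fell by 0.75 (SE 0.12; −0.40 with the GC trend removed).

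Several of the largest changes among well-counted protein-coding genes belonged to no list. SLC39A6, a zinc transporter (ENSG00000141424, chromosome 18 of hg38 from 36108532 to 36129385), stood at 163, 166 and 165 CPM in TGFB and 17.9, 14.3 and 19.8 CPM in SiNAT10_TGFB, a log2 fold change of −3.25 with an SE of 0.1 and an adjusted p of 3.13e-17. TENM2, a teneurin of the cell surface, fell from 536, 529 and 579 to 69.5, 60.7 and 54.8 CPM, by 3.15 (SE 0.085). CACNA1H, a calcium channel, fell from 5.19, 5.31 and 6.35 to 0.763, 0.0768 and 0.326 CPM, by 3.81 (SE 0.37; −2.40 and −0.66 on FPKM with pseudocounts of 0.1 and 1). HR, a nuclear corepressor, fell by 3.15 (SE 0.18; −1.39 on FPKM with a pseudocount of 1). ESM1, a proteoglycan of endothelial cells, rose from 12.6, 14 and 10.4 to 154, 157 and 173 CPM, by 3.70 (SE 0.11). FGF18, a fibroblast growth factor, rose by 4.19 (SE 0.25), and TMEM156, a membrane protein, by 4.54 (SE 0.2; 2.03 and 2.37 on FPKM with a pseudocount of 1). At most 3 counts in each TGFB library and at least 30 in each SiNAT10_TGFB library were found for 15 genes. Beside MMP3 and MMP10 they include EHF, an epithelial ETS factor, with 2, 2 and 0 counts in TGFB and 79, 97 and 93 in SiNAT10_TGFB, and PTGER3, a prostaglandin receptor, with 0, 0 and 0 against 88, 58 and 87. Among transcription factors as the files classify them, 51 of 106 homeobox genes fell and 12 rose (median −0.50), and 27 of 57 of the bHLH family fell and 9 rose (median −0.21). The bZIP family went the other way, with 24 of 45 higher and 9 lower (median 0.20). So did the largest family, zf-C2H2, with 191 of 531 higher and 100 lower, and ETS, with 10 of 21 higher and 5 lower. Over all families 380 of 1184 factors rose and 336 fell. The family counts were not repeated with the GC trend removed, and the part of GC content in them was not tested.

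The effect of the siRNA under TGF-β1 was then set against its effect without TGF-β1 by the interaction of the 2 contrasts. It was larger in the positive direction for 360 genes (1.94%) and in the negative direction for 354 (1.91%). The counts were 641 and 290 with library-size scaling (68.9% of calls positive in place of 50.4%), and 659 and 705 with the GC trend removed. JAG1 stood at 25, 24 and 22.6 CPM in con, 29.8, 28.6 and 29.9 CPM in SiNAT10, 307, 316 and 329.7 CPM in TGFB and 91.3, 78.3 and 92 CPM in SiNAT10_TGFB. It was lower with the siRNA in the presence of TGF-β1 and slightly higher in its absence (0.30), a difference of −2.16 (SE 0.099, adjusted p = 3.31e-12). DSP, the desmosome protein desmoplakin, stood at 96.9, 104 and 87.4 CPM in con, 95.9, 93.8 and 90.9 in SiNAT10, 493, 524 and 531 in TGFB and 205, 178 and 196 in SiNAT10_TGFB, a difference of −1.38 (SE 0.094, adjusted p = 2.15e-09). For LIF the levels were 28.2, 30.8 and 30.4 CPM in con, 27.3, 29.6 and 23.8 in SiNAT10, 132, 126 and 125 in TGFB and 41.4, 33 and 32.3 in SiNAT10_TGFB, and the difference was −1.70 (SE 0.13, adjusted p = 1.02e-08). All 3 genes were highest in the TGFB libraries. EDN1 differed by −1.51 (SE 0.14, adjusted p = 1.95e-07). SPARC differed by −0.81 (SE 0.071, adjusted p = 7.4e-08) and INHBA, an activin subunit, by −1.03 (SE 0.091, adjusted p = 8.52e-08), and both were higher with the siRNA in the absence of TGF-β1 (0.73 and 0.94).

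In the positive direction, EPHA4 stood at 17.6, 18.3 and 19.4 CPM in con, 15.3, 14.1 and 15.4 CPM in SiNAT10, 6.33, 6.43 and 7.66 CPM in TGFB and 18.2, 18 and 17.9 CPM in SiNAT10_TGFB, a difference of 1.70 (SE 0.15, adjusted p = 6.41e-08). It was lowest in the TGFB libraries. BMF stood at 6.16, 5.67 and 5.15 CPM in con, 7.93, 9.89 and 9.27 in SiNAT10, 5.53, 5.87 and 6.55 in TGFB and 27.7, 23.8 and 22.7 in SiNAT10_TGFB, highest with both treatments, a difference of 1.38 (SE 0.18, adjusted p = 3.15e-05). PPP1R15A differed by 0.60 (SE 0.085, adjusted p = 0.000102) and PTX3, a soluble pattern recognition protein, by 0.85 (SE 0.099, adjusted p = 6.05e-06). Of the 60 tested interferon response genes the interaction was called in either direction for 18, against 714 of the 18560 genes tested. Among the 18, IFIT3 differed by 0.75 (SE 0.096, adjusted p = 2.33e-05) and OASL by 0.97 (SE 0.11, adjusted p = 4.59e-06), both in the positive direction. OASL stood at 56.8, 54 and 49.7 CPM in con and 118, 122 and 144 CPM in SiNAT10. For UTP3, THUMPD1, EEF2, MRPS27, SLC39A6 and PLK1 the interaction did not pass the threshold, with differences of 0.06, −0.03, −0.20, −0.10, −0.33 and −0.18.

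**Figure D4:**
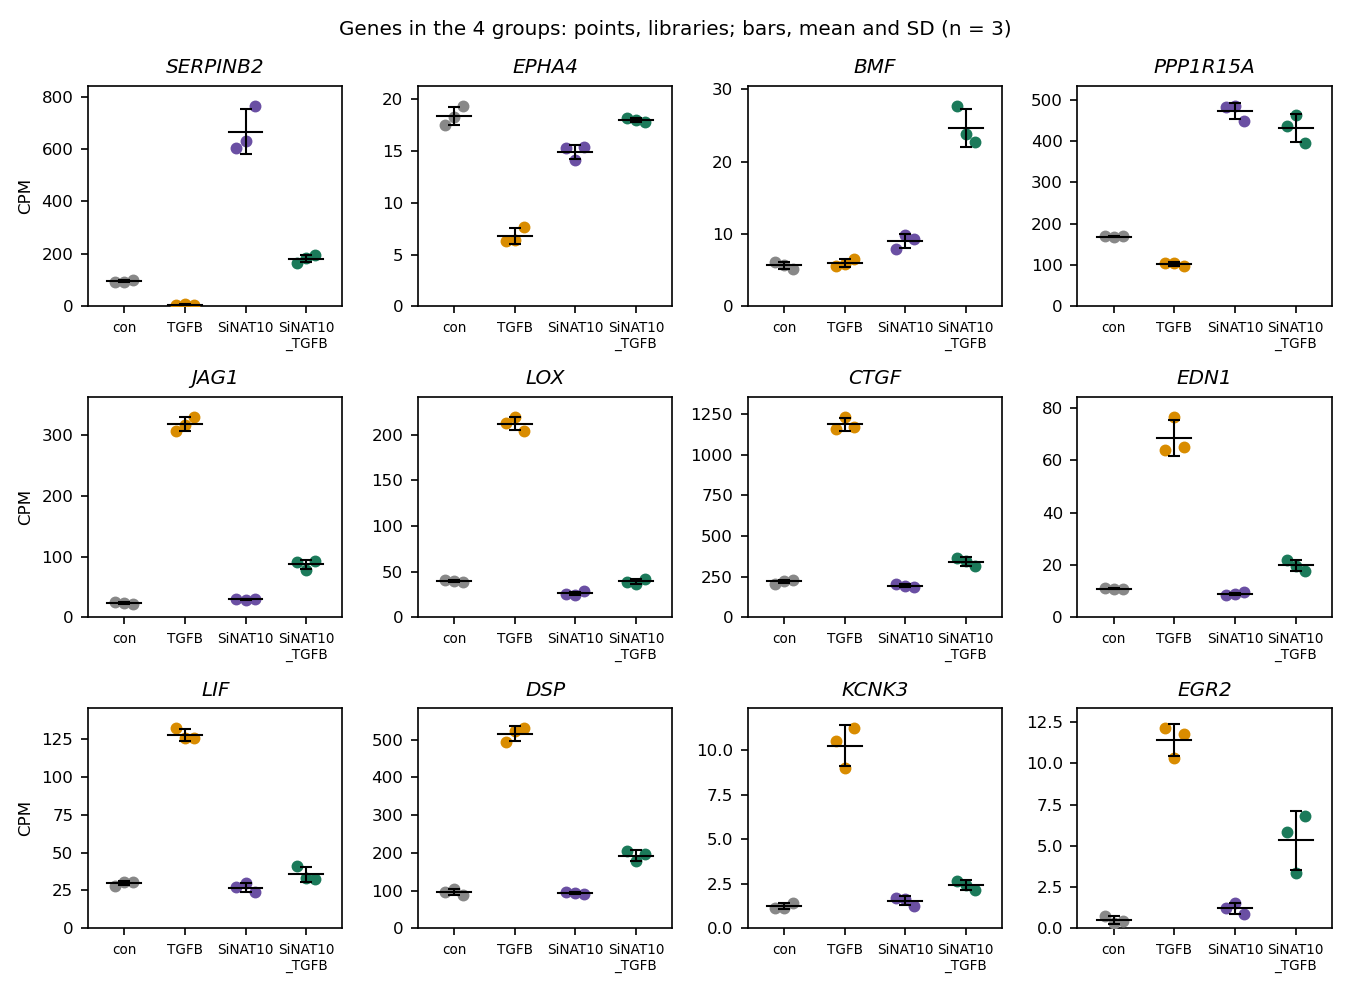
Levels (y axis, CPM from 0) of 12 genes in the 4 groups, one panel each; points are libraries, and bars are the mean and SD (n = 3). JAG1, LOX, CTGF, EDN1, LIF, DSP and KCNK3 are highest in all 3 TGFB libraries, and EPHA4 is lowest there, at 6.33, 6.43 and 7.66 CPM.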

How the data were processed

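The authors deposited whole-number read counts per gene and FPKM values for 12 libraries of LX-2 cells, 3 in each of 4 groups. Per the submitters' processing notes, fastp cleaned the reads and HISAT2 2.2.1 placed them on hg38. The counting tool, annotation and strand setting were not given in the sources used here. The deposited FPKM equalled the counts scaled by gene length and library total, with 1 further factor for each library. Gene positions matched GENCODE release 29 for all 58735 genes, and overlap of exons was taken from it.

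Counts were fitted for all 12 libraries with edgeR 4.0.16 in R 4.3.3, with TMM scaling, its filter on low counts and 1 mean per group. The call rule was an adjusted p under 0.05. Chi-square over degrees of freedom was 4.15 to 20.6 between replicates of 1 group, which showed no library deposited more than once within its group. Pairs from different groups were not compared in this way. On simulated data 12, 52, 74 and 96% of 50 genes changed by 0.25, 0.5, 1 and 2 on the log2 scale were called, with 8 false calls among 17826 genes. That simulation changed few genes and held no GC trend. In the real data 53.1% of genes were called and a GC trend was present, so its rates need not apply to them. In these libraries 3 counts are 0.0926 to 0.115 CPM.

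Members and gene lists were chosen with earlier results of these data known. Named genes are, from each list, the 4 members with the smallest p in the direction with more calls, 2 in the other direction and the member with the highest CPM. To these were added the 12 largest changes each way among protein-coding genes with a mean of at least 50 counts, the 6 largest differences each way and the 10 genes highest in FPKM. The markers, MMP3, MMP10, GDF6, EHF, PTGER3, ATF4, AURKA, CCL5, CCNB1, CDK1, FBN1, IFIT1, IFNB1, IL6, INHBA, ISG15, MDM2, NFKB1, NFKB2, RELB, SMAD7, SPARC and TGFBR1 fall outside that rule and were chosen after their values were seen. Some list members are not reported here. Alternatives were other scalings (library size, upper quartile and DESeq2's size factors), no count filter or 10 counts in 3 libraries, removal of the GC trend with a spline, a replicate block, a fit of the 2 groups alone, limma 3.58.1 on log2(FPKM + 0.1 or 1), DESeq2 1.42.0, a stricter threshold of 0.01 and leaving out each library.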

Additional observations from a re-analysis of the deposited data

Results flagged for a closer look

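The siRNA effect with TGF-β1 minus that without it was tested as an interaction with edgeR's quasi-likelihood test and Benjamini-Hochberg adjustment. The 6 largest differences of each sign among protein-coding genes with a mean of at least 50 counts are given here, with 3 libraries in each group. SERPINB2, a protease inhibitor, had the difference 1.92 (adjusted p = 4.34e-10): it rose with the siRNA in both settings, from 6.67, 7.08 and 6.78 to 167, 183 and 195 CPM with TGF-β1 and from 91.6, 93.7 and 99.2 to 606, 629.8 and 764 CPM without it. For EPHA4 the difference was 1.70, with the levels given in the report. EVI2B, a membrane protein of blood cells, had the difference 1.92 (SE 0.3, adjusted p = 0.000266), and PARD6B, a cell polarity protein, the difference 1.73 (SE 0.29, adjusted p = 0.000619), which was not called on FPKM with a pseudocount of 1 (0.34). AC126755.2 had the difference 2.08 (SE 0.35, adjusted p = 0.00064).

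Among the negative differences, KRT14, a keratin of basal epithelia, stood at 4.91, 3.88 and 6.11 CPM in TGFB and 1.08, 0.691 and 0.761 CPM in SiNAT10_TGFB, a difference of −2.66 (SE 0.47, adjusted p = 0.00102). KCNK3, a potassium channel, had the difference −2.37 (SE 0.28, adjusted p = 7.4e-06), and EGR2, a zinc finger factor, the difference −2.31 (SE 0.4, adjusted p = 0.00088). PKNOX2, a homeobox factor, stood at 11.2, 10.6 and 12.7 CPM in TGFB and 1.01, 0 and 0.398 CPM in SiNAT10_TGFB. Its difference of −3.82 (SE 0.99, adjusted p = 0.027) was not called with DESeq2 (−3.85), without SiNAT10 replicate 2 (−2.63) or without SiNAT10_TGFB replicate 3 (−3.69).

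A further 3 genes have near-identical copies in the genome, whose reads the counting may have divided, so their values are uncertain. U2AF1L5 had the difference 2.58 (SE 0.61, adjusted p = 0.0135), not called on FPKM with pseudocounts of 0.1 (2.05) and 1 (1.34), with DESeq2 (2.59), without con replicate 3 (2.24) or without SiNAT10_TGFB replicate 2 (1.67). CCL3L1 had the difference −2.23 (SE 0.39, adjusted p = 0.000948), not called on FPKM with a pseudocount of 0.1 (−2.11). BOLA2B had the difference −8.23 (SE 1.9, adjusted p = 0.0132). Its TGFB libraries stood at 23.3, 0.311 and 0.608 CPM and its SiNAT10 libraries at 24.7, 0.428 and 0.286 CPM, and the call was lost without TGFB replicate 1 (−4.09), without SiNAT10 replicate 1 (−3.67) or on FPKM (−3.43 and −2.45 with pseudocounts of 0.1 and 1).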

How the results depend on the processing

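The counts of genes higher and lower with the siRNA under TGF-β1 (4886 and 4971) were 6306 and 3983 with library-size scaling and 5299 and 4839 with the GC trend removed, where 8129 of the 9857 calls kept their direction and 155 reversed. Leaving out 1 library at a time gave 4409 to 4633 higher and 4509 to 4717 lower. The counts for the difference with and without TGF-β1 (360 and 354) were 641 higher with library-size scaling, 659 higher and 705 lower with the GC trend removed, and 245 to 464 higher and 268 to 506 lower without 1 library.

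Replicate numbers did not pair the libraries: deviations of same-numbered libraries correlated at −0.044, −0.042 and −0.133 over 13043 genes, and those of other pairs reached 0.119. A replicate block gave 4726 and 4853 calls for the siRNA under TGF-β1, and 286 and 305 for the difference. The block with the GC trend removed gave 592 and 632 for the difference.

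The direction reversed with the GC trend removed, and likewise with the block added, for BMS1 (−0.108), LOXL2 (0.303), BCL3 (0.29 and 0.291), EPHA2 (0.411), NSUN2 (−0.00881, and −0.00899 with the block), NDUFV1 (0.0263), MT-CO1 (−0.0935 and −0.093) and KEAP1 (0.0900 and 0.0896), and with library-size scaling for ITGB1 (0.000535). The cause was not tested. At these depths 3 counts are 0.0926 to 0.115 CPM, which limits the genes with few reads.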
